A study of Mus musculus with 10 samples.

Results

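The NR4A orphan nuclear receptors are encoded in the mouse by 3 genes, Nr4a1, Nr4a2 and Nr4a3, and all 3 were found by symbol among the 33212 genes of the deposited count table. The genes were chosen by symbol, as a family picked for its log2 fold change and its levels in these libraries. RNA was taken from αTC1 cells, a line of glucagon-producing α cells from a mouse islet tumour driven by the SV40 large T antigen under the glucagon promoter, after 48 h in enzalutamide at 10 μM, an antagonist of the androgen receptor used in prostate cancer, or after 48 h in the solvent DMSO. Each group held 5 libraries of polyadenylated RNA, labelled as biological replicates of 1 cell line, and both groups were grown in medium with 10% serum and glucose at 1 g/L. By its title the study concerns how β cells arise from α cells. Whether replicates were separate cultures is not stated, so a p-value here reflects variation among these libraries, which may be technical.

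NR4A proteins are transcription factors with no known natural hormone that fills their ligand pocket. Their activity depends on how much protein is made and also on phosphorylation, export from the nucleus and partner proteins, which mRNA levels do not show. The genes are immediate early genes: in many cells, islet cells among them, they are switched on within minutes by cAMP acting through protein kinase A and the transcription factor CREB, by calcium acting through calcineurin and MEF2, and by the ERK kinase cascade, and their mRNAs are short-lived. The proteins bind DNA as monomers at the extended half-site known as the NBRE, as dimers of their own, or, in the case of NR4A1 and NR4A2, together with retinoid X receptors. In rat β cells NR4A1 and NR4A3 act in proliferation, and in liver NR4A1 acts on genes of gluconeogenesis.

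Library totals were 59557697 to 67406939 counts in enzalutamide and 64557371 to 68603842 counts in DMSO, and did not separate the groups (exact permutation test, two-sided, p = 0.262, 5 libraries in each group). All 11 α cell markers examined averaged at least 1 CPM, the usual unit of counts scaled to library size. Their summed level was 13109 to 14553 CPM in enzalutamide and 20451 to 21629 CPM in DMSO, with the glucagon gene Gcg at 8466 ± 389 CPM in enzalutamide and 15269 ± 440 CPM in DMSO and the transthyretin gene Ttr at 496 ± 40.7 CPM in enzalutamide and 1153 ± 62.3 CPM in DMSO. The markers did not all go one way: Chga was at 1507 ± 71.6 CPM in enzalutamide and 1311 ± 25.2 CPM in DMSO, and Neurod1 was at 162 ± 5.86 CPM in enzalutamide and 162 ± 8.37 CPM in DMSO. Of 25 markers of other cell types, 4 averaged at least 1 CPM, and Ins1, Pdx1 and Ucn3 of β cells, Sst and Ppy of other islet cells, Ptprc of leukocytes and Cdh5 of endothelium had 0 counts. The largest of these sums were those of duct markers, at 8.49 to 10.9 CPM in enzalutamide and 11.2 to 11.9 CPM in DMSO, all of it Sox9, and of fibroblast markers, at 7.60 to 9.77 CPM in enzalutamide and 6.60 to 7.73 CPM in DMSO, mostly Pdgfra. Among β cell markers with any counts, Mafa was at 0.989 ± 0.439 CPM in enzalutamide and 1.03 ± 0.759 CPM in DMSO. Ins2 was at 0.409 ± 0.12 CPM in enzalutamide and 0.626 ± 0.138 CPM in DMSO, and Iapp reached at most 0.0759 CPM. The part of all these cell type markers in the NR4A differences was not tested.

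The RefSeq promoters of the 3 genes are shown because all carry repeats of the CRE half-site, the short sequence that CREB recognises. Half-sites (TGACG, or CGTCA on the other strand) are in capitals, every sequence runs 5′ to 3′ on the strand of the gene, and the build is GRCm38.p6. Nr4a1 (ENSMUSG00000023034) lies on chromosome 15 at 101254269 to 101274795, plus strand, and the sequence is chr15:101266596-101266845, which lies inside the gene's span, outside GENCODE exons and just before an annotated start. Nr4a2 (ENSMUSG00000026826) lies on chromosome 2 at 57106830 to 57124003, minus strand, and the sequence is chr2:57124004-57124253. Nr4a3 (ENSMUSG00000028341) lies on chromosome 4 at 48045153 to 48086447, plus strand, and the sequence is chr4:48045055-48045164.
Nr4a1: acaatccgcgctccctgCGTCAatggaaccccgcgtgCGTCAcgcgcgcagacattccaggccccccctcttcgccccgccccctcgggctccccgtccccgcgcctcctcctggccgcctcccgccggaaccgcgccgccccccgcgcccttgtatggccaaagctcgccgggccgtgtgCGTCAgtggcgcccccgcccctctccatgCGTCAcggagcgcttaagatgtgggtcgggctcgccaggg
Nr4a2: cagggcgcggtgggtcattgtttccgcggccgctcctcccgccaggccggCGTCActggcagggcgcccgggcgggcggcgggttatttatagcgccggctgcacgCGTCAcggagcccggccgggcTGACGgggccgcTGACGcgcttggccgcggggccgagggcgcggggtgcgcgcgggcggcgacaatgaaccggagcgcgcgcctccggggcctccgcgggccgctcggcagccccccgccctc
Nr4a3: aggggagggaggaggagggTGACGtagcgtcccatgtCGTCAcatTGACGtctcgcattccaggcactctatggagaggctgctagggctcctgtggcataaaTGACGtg

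Each of the 3 promoters held 4 half-sites in the 250 bases before the RefSeq start. Of all 32851 windows of this length in the table, 17.8% held at least 1 half-site and 0.137% (45 windows) held at least 4. These include windows of genes not tested here. Of 9909 tested genes matched to a window by symbol, NR4A left out, 31.1% held at least 1, and 33 genes held at least 4. The 3 NR4A windows are rich in G and C, at 74.4% for Nr4a1, 80.0% for Nr4a2 and 63.6% for the 250 bases of Nr4a3. The windows compared were not matched for G and C. For Nr4a3 the earliest GENCODE start lies inside the window, so its sequence is printed only to just past the half-site nearest to the RefSeq start, and its last 12 bases lie in a GENCODE exon. That last half-site is within these 12 bases, so the count of 4 for Nr4a3 is relative to the RefSeq start, and the 250 bases before the earliest GENCODE start were not counted. The full palindrome TGACGTCA, which joins a pair of half-sites, was in 0 of the 3 windows and in 1.55% of all windows, and the NBRE itself (AAAGGTCA, either strand) was in 0 of the 3 and in 1.34% of all. The CArG box that SRF binds was in 0 of the 3 and in 1.47% of all, while TATAAA, read on both strands, was in the Nr4a2 window and in 12.4% of all. The GC box GGGCGG, read on both strands, occurred 3 times before Nr4a1, 4 times before Nr4a2 and 1 time before Nr4a3, and at least 1 was in 32.7% of all windows. A match is a match of letters, and the data hold no measure of binding.

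**Figure D1:**
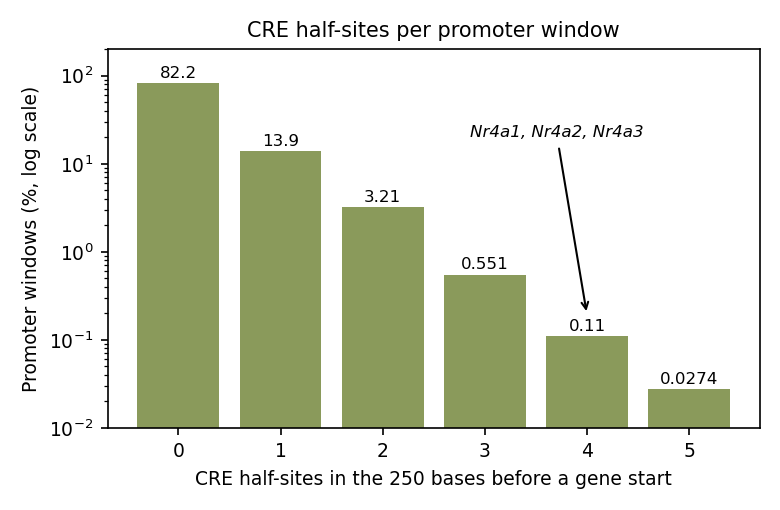
Share of promoter windows (y axis, percent of 32851 windows, log scale) by the number of CRE half-sites in the 250 bases before a RefSeq gene start (x axis). Nr4a1, Nr4a2 and Nr4a3 each have 4, a number found in 0.11% of windows, and 82.2% of windows have 0.

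All 3 NR4A mRNAs were lower in every enzalutamide library than in any DMSO library, most of all Nr4a1. Because the genes were chosen with this contrast known, their differences are given as a description with no test. Levels are in CPM, scaled between libraries, and every ± is the SD over 5 libraries.

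Nr4a1 encodes NUR77, the family member most widely studied in endocrine tissues. Its level was 5.86, 5.88, 5.71, 6.48 and 5.80 CPM in the enzalutamide libraries 1 to 5, against 69.9, 67.7, 63.2, 69.9 and 66.8 CPM in the DMSO libraries. The groups were far apart, and the lowest DMSO value was 9.75 times the highest enzalutamide value. The mean was 5.95 ± 0.306 CPM in enzalutamide and 67.5 ± 2.76 CPM in DMSO, an 11.3-fold difference (log2 fold change -3.50, SE 0.053). Enzalutamide cells thus kept 8.81% of the DMSO mean. Raw counts were 354 to 432 in enzalutamide and 4249 to 4721 in DMSO.

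Nr4a2 encodes NURR1, which is known from the development of dopamine neurons. It was at 4.27, 5.22, 5.36, 5.43 and 5.38 CPM in enzalutamide libraries 1 to 5, against 22.9, 22.6, 20.1, 20 and 21.8 CPM in DMSO libraries. Library 1 was the lowest of the enzalutamide libraries, the other 4 lay close together, and again no values overlapped. The means were 5.13 ± 0.489 CPM in enzalutamide and 21.5 ± 1.37 CPM in DMSO (log2 fold change -2.06, SE 0.0778; 4.18-fold lower).

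Nr4a3 encodes NOR1, the family member that does not pair with retinoid X receptors. It was the least abundant, at 1.99, 2.81, 1.96, 2.81 and 1.58 CPM in enzalutamide libraries 1 to 5, against 6.02, 7.02, 4.16, 6.36 and 7.35 CPM in DMSO libraries. DMSO library 3 came closest to the enzalutamide range, at 1.48 times the highest enzalutamide value. The means were 2.23 ± 0.552 CPM in enzalutamide and 6.18 ± 1.25 CPM in DMSO (log2 fold change -1.47, SE 0.178; 2.77-fold lower).

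**Figure D2:**
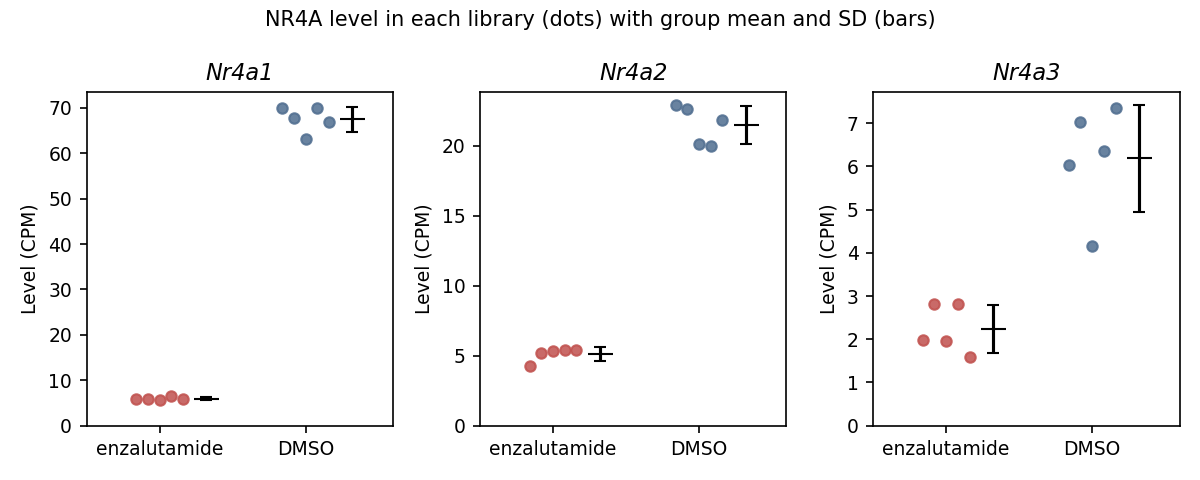
Level in CPM (y axis, from 0, a separate scale for each gene) of Nr4a1, Nr4a2 and Nr4a3 in the 5 enzalutamide and 5 DMSO libraries (dots), with the group mean and SD (bars). No enzalutamide value reaches a DMSO value, and the gap is widest for Nr4a1 (5.71 to 6.48 against 63.2 to 69.9 CPM) and narrowest for Nr4a3.

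Of the 14156 genes with enough counts to test, 13.7% had enzalutamide values that all lay below the DMSO values, and 1.12% were more than 2-fold lower by the fitted log2 fold change. Ranked from the most negative log2 fold change, Nr4a1 was 2nd, Nr4a2 22nd and Nr4a3 53rd. The 1 gene ahead of Nr4a1 was Rln3, the relaxin-3 gene, whose mean was 0.957 CPM in DMSO, against 67.5 CPM for Nr4a1. In bulk RNA, fewer cells with a transcript and less of the transcript per cell cannot be told apart.

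**Figure D3:**
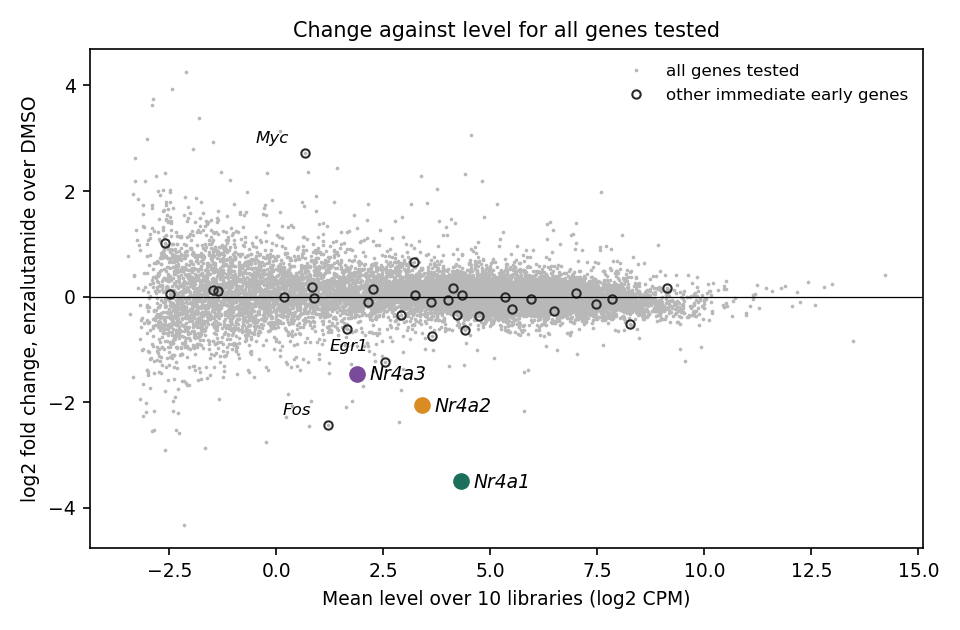
log2 fold change of enzalutamide over DMSO (y axis) against mean level over 10 libraries in log2 CPM (x axis) for the 14156 genes tested (grey dots), with the NR4A genes as coloured dots and other immediate early genes as open circles. Nr4a1 lies at -3.50, below every other gene at or above its level, and the median of the other immediate early genes is -0.05.

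To compare the paralogues with each other, levels were divided by the length of their merged exons (3509 bases for Nr4a1, 4059 for Nr4a2 and 5987 for Nr4a3). On this scale of CPM per kilobase (kb) the order of levels was Nr4a1, Nr4a2, Nr4a3 in both groups, with no overlap between neighbours within a group. In enzalutamide Nr4a1 was at 1.63 to 1.85, Nr4a2 at 1.05 to 1.34 and Nr4a3 at 0.265 to 0.47 CPM per kb. In DMSO Nr4a1 was at 18.0 to 19.9, Nr4a2 at 4.92 to 5.64 and Nr4a3 at 0.695 to 1.23 CPM per kb. The log2 fold change of Nr4a1 was lower than that of Nr4a2 by a difference of -1.44 (SE 0.0941), and that of Nr4a2 lower than that of Nr4a3 by one of -0.59 (SE 0.195). Each of these SEs joins the SEs of both genes as if independent, although both genes were measured in the same libraries.

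The summed level of the family was 3.33 ± 0.225 CPM per kb in enzalutamide and 25.6 ± 1.11 CPM per kb in DMSO, so that 13.0% of the DMSO sum was left. The make-up of what was left differed. Nr4a1 made up 50.9 ± 2.25% of the sum in enzalutamide and 75.3 ± 1.21% in DMSO. Nr4a2 made up 38.0 ± 2.67% in enzalutamide and 20.7 ± 0.977% in DMSO, and Nr4a3 made up 11.1 ± 2.21% in enzalutamide and 4.02 ± 0.716% in DMSO. In all 5 enzalutamide libraries the Nr4a1 share (48.8 to 54.7%) was below its share in any DMSO library (74.1 to 76.9%). Among the 13985 genes with an annotated length, Nr4a1 lay above 28.1% of genes by mean CPM per kb in enzalutamide and above 79.1% in DMSO.

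**Figure D4:**
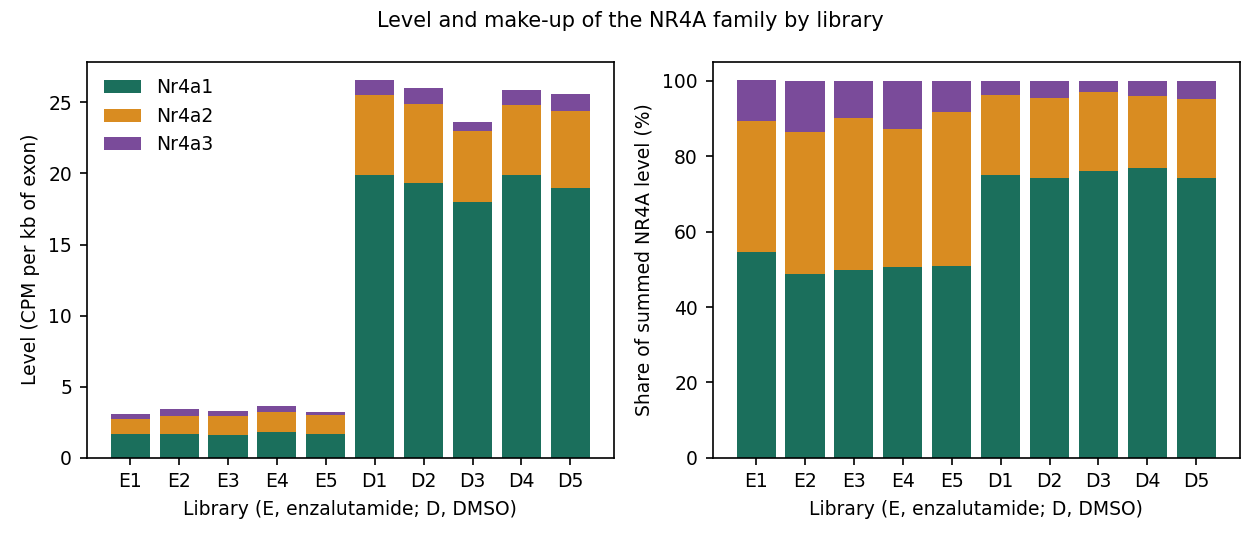
Left, level of the NR4A genes stacked by library in CPM per kb of exon; right, the same as percent of the library's NR4A sum (enzalutamide libraries E1 to E5, DMSO libraries D1 to D5). The sums are 3.05 to 3.65 in enzalutamide and 23.7 to 26.6 in DMSO, and Nr4a1 makes up 50.9% of the sum on average in enzalutamide and 75.3% in DMSO.

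The paralogues also differed in how much replicate libraries varied, which is given here with no test. Nr4a1 was steady, with a coefficient of variation (CV) of 5.15% in enzalutamide and 4.09% in DMSO, where counting alone gives 5.07% in enzalutamide and 1.5% in DMSO. Nr4a2 had a CV of 9.52% in enzalutamide and 6.35% in DMSO. Nr4a3 had a CV of 24.8% in enzalutamide and 20.1% in DMSO, where counting alone gives 8.26% in enzalutamide and 4.95% in DMSO. The fitted biological CV was 5.34% for Nr4a1, 8.13% for Nr4a2 and 19.3% for Nr4a3, where the fitted trend at each gene's level was 6.33% for Nr4a1, 9.18% for Nr4a2 and 16% for Nr4a3. Of 723 genes within 0.5 log2 CPM of Nr4a3, 8.71% had a larger fitted value than Nr4a3, whereas 77.5% of the 2330 genes at the level of Nr4a1 had a larger one than Nr4a1.

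The genes whose pattern over the 10 libraries was closest to each NR4A gene were found by the root mean square (RMS) difference in log2 CPM, after each gene was centred on its own mean. For Nr4a1 the nearest genes were Fos, an AP-1 subunit (RMS 0.58), the ERK phosphatase gene Dusp6 (0.593), C2cd4b (0.609), Gucy2c, which encodes a receptor guanylate cyclase (0.643), and the prolactin receptor gene Prlr (0.67). All 5 had smaller fold changes than Nr4a1, between -2.17 and -2.76 on the log2 scale.

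Nr4a2 had closer neighbours, namely Prlr (RMS 0.126), the calcium release channel gene Ryr2 (0.137), Dusp6 (0.233), the thyroid hormone deiodinase gene Dio2 (0.24) and the angiotensinogen gene Agt (0.258). Those of Nr4a3 were Fam46a, which encodes a poly(A) polymerase (0.273), Dapl1 (0.294), the neurosecretory peptide gene Vgf (0.294), Hapln1, a link protein of hyaluronan (0.299), and Hal, histidine ammonia lyase (0.304). Prlr was at 25.9 ± 2.34 CPM in enzalutamide and 117 ± 3.6 CPM in DMSO. Hapln1 was at 33.9 ± 2.39 CPM in enzalutamide and 91.1 ± 4.54 CPM in DMSO. The RMS difference takes in the difference between the groups as well as that between replicates.

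Other immediate early genes went in both directions, and 18 of 33 did not pass. All genes were tested with the quasi-likelihood method of edgeR at a Benjamini-Hochberg adjusted p under 0.05, and 37.8% passed, 19% higher and 18.8% lower in enzalutamide. Of the genes that passed, 50.3% were higher, or 60.7% when libraries were scaled by total counts alone. Of 33 immediate early genes tested outside the NR4A family, 12 were lower (36.4%) and 3 higher (9.09%), with a median log2 fold change of -0.05 against 0.01 over all genes. Fos fell 5.41-fold, to 0.988 ± 0.215 CPM in enzalutamide against 5.37 ± 0.728 CPM in DMSO (log2 fold change -2.44, SE 0.169, adjusted p = 6.2e-09). Egr1, a zinc finger factor induced by ERK, fell 2.35-fold, to 3.80 ± 0.562 CPM in enzalutamide against 8.96 ± 1.72 CPM in DMSO (log2 fold change -1.23, SE 0.134, adjusted p = 1.39e-06).

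Smaller falls were those of Ier3 (log2 fold change -0.74), Ier5l (-0.64) and the AP-1 subunit gene Fosl2 (-0.52). Myc, the growth factor-induced transcription factor gene, moved the other way: it rose 6.55-fold, to 4.18 ± 1.05 CPM in enzalutamide against 0.637 ± 0.294 CPM in DMSO (log2 fold change 2.71, SE 0.266, adjusted p = 4.21e-07). Jun, Junb and Dusp1, chosen here after their values were seen, did not pass. The log2 fold change was -0.07 for Jun (adjusted p by edgeR 0.479), 0.03 for Junb (0.738) and -0.05 for Dusp1 (0.278).

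Genes commonly induced by cAMP through CREB went both ways, in a list that left out the NR4A and Fos genes. The counts and median below therefore do not include Fos, which fell as given above. Of 17 tested, 8 were lower (47.1%) and 6 higher (35.3%), against 18.8% lower and 19% higher over all genes. The median log2 fold change was 0.0. Vgf fell 2.63-fold, to 36.7 ± 2.87 CPM in enzalutamide against 96.4 ± 2.84 CPM in DMSO (log2 fold change -1.39, SE 0.0488, adjusted p = 8.34e-13). Fam46a fell to 10.4 ± 1.06 CPM in enzalutamide against 25.9 ± 2.36 CPM in DMSO (log2 fold change -1.31, SE 0.0784, adjusted p = 9.4e-10). Dio2, also on this list, is named only for its pattern close to that of Nr4a2, a choice that used the group difference. Its level was 0.614 ± 0.0837 CPM in enzalutamide and 2.59 ± 0.311 CPM in DMSO (log2 fold change -2.07, SE 0.194). Sik1, a kinase that dampens CREB coactivators, fell by 0.38 on the log2 scale. The clock gene Per1 rose (0.50, SE 0.0457, adjusted p = 1.92e-07).

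Components that carry the cAMP signal had mostly small fold changes. Of 22 tested, 8 were higher (36.4%) and 4 lower (18.2%), against 19% higher and 18.8% lower over all genes. The median absolute log2 fold change was 0.171, against 0.157 over all genes. Gnas, the stimulatory G protein subunit, had a log2 fold change of -0.18, and Prkaca, a catalytic subunit of protein kinase A, one of -0.19, and both fell. Exons of Gnas overlap those of 2 genes on the other strand, over 13.1% and 8.83% of their length. Crem, a CREB family gene, fell (-0.43, SE 0.0546, adjusted p = 8.83e-06), and the CREB coactivator gene Crtc3 rose (0.44, SE 0.0437, adjusted p = 5.29e-07). Creb1, named after its value was seen, was at 111 ± 4.09 CPM in enzalutamide and 124 ± 4.79 CPM in DMSO (log2 fold change -0.16, adjusted p = 0.00176). The glucagon receptor gene Gcgr reached at most 0.0893 CPM in any library, and the GLP-1 receptor gene Glp1r was listed at 0 in every library. Prkar1a, a regulatory subunit gene of protein kinase A that most cells use, was also listed at 0 in every library. The cause was not found, so a listed 0 need not mean that the transcript was absent.

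Among genes of the calcium, MEF2 and SRF inputs, 10 of 29 tested were higher (34.5%) and 4 lower (13.8%). Over all genes 19% were higher and 18.8% lower. The median log2 fold change of the list was 0.10. Camk4, a calcium-dependent kinase that acts on CREB, fell to 114 ± 6.32 CPM in enzalutamide against 153 ± 4.29 CPM in DMSO (log2 fold change -0.42, SE 0.039, adjusted p = 2.08e-07). The SRF partner gene Elk3 fell by 0.88 on the log2 scale. The MEF2 factor genes Mef2d (0.24) and Mef2a (0.27) rose; MEF2D acts on the Nr4a1 promoter in T cells. A gene on the other strand overlaps 8.87% of the exon length of Mef2d.

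Among genes that ERK induces, many of which feed back on it, Dusp6, Spry4 and Etv5 fell most. Of 16 tested, 9 were lower (56.2%) and 2 higher (12.5%), against 18.8% lower and 19% higher over all genes. The median log2 fold change was -0.20. Dusp6 was at 3.24 ± 0.698 CPM in enzalutamide and 16.8 ± 1.26 CPM in DMSO (log2 fold change -2.37, SE 0.121, adjusted p = 1.17e-10). Spry4, a feedback inhibitor, and Etv5, an ETS factor, each fell by 1.98 on the log2 scale. Dusp4, another phosphatase, fell by 0.57. Myc and Egr1 belong to this list as well and went in opposite directions.

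**Figure D5:**
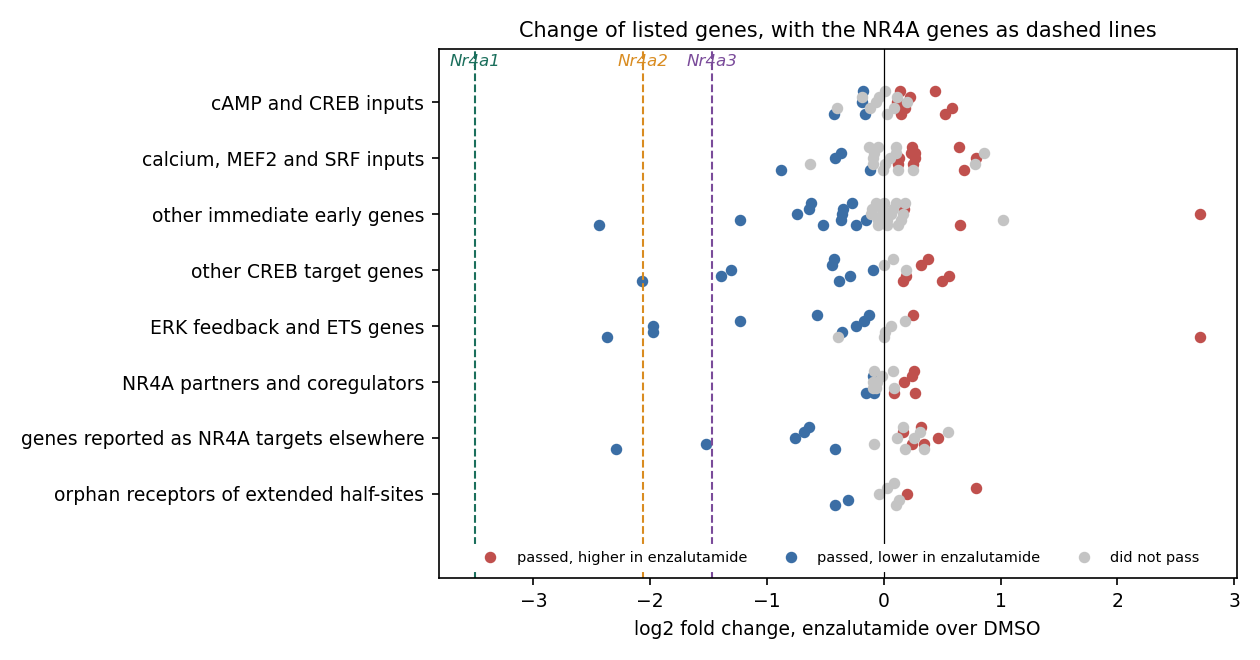
log2 fold change of enzalutamide over DMSO (x axis) for the tested members of 8 gene lists (rows, 1 dot a gene, spread vertically for legibility), coloured by whether the gene passed at an adjusted p under 0.05 and in which direction. Dashed lines mark Nr4a1 (-3.50), Nr4a2 (-2.06) and Nr4a3 (-1.47); in the partner list all dots lie close to 0.

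Genes of NR4A partner proteins had small fold changes. Of 16 tested, 5 were higher (31.2%) and 3 lower (18.8%), against 19% higher and 18.8% lower over all genes. The median absolute log2 fold change was 0.0868, against 0.157 over all genes. Rxra, a gene of the retinoid X receptors that pair with NR4A1 and NR4A2, rose to 40.9 ± 2.94 CPM in enzalutamide against 33.9 ± 2.05 CPM in DMSO (log2 fold change 0.27, SE 0.0561, adjusted p = 0.00103). Rxrb, another of these genes, rose by 0.24 on the log2 scale. Rxrg was listed at 0 in every library. The corepressor gene Rcor2 (0.26) and the coactivator gene Ncoa1 (0.17) rose. Trim28, a corepressor gene, fell by 0.08 on the log2 scale (adjusted p = 0.0313), but did not pass with total-count scaling (adjusted p = 0.188, range over all alternatives 0.00675 to 0.188). It also did not pass without enzalutamide library 4 (0.0916) or 5 (0.0542), or DMSO library 2 (0.0529), 4 (0.0697) or 5 (0.0648). Without DMSO library 4, or without DMSO library 5, 5 genes of the list passed in place of 8.

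Genes reported elsewhere to be NR4A targets were mixed in direction. Of 31 listed, 19 could be tested, and 6 were lower (31.6%) and 5 higher (26.3%). Over all genes 18.8% were lower and 19% higher. Fbp1, the gluconeogenic fructose bisphosphatase regulated by NR4A1 in liver, fell to 37.6 ± 2.86 CPM in enzalutamide against 60.2 ± 2.19 CPM in DMSO (log2 fold change -0.68, SE 0.0517, adjusted p = 2.16e-08). Spp1, which encodes osteopontin, fell 4.89-fold to 0.527 ± 0.146 CPM in enzalutamide against 2.59 ± 0.705 CPM in DMSO, and Tnfsf10, the TRAIL gene, fell by 0.76 on the log2 scale. Another gene on the same strand overlaps 18.8% of the exon length of Spp1. Ube2c, a mitotic ubiquitin-conjugating enzyme gene, fell by 0.42 on the log2 scale, and 22.8% of its exon length overlaps another gene on the opposite strand. Lpin1, a phosphatidate phosphatase gene (0.32), and Tox, a T cell transcription factor gene (0.24), rose. Pomc, the pituitary target, named after its value was seen, was at 5.83 ± 0.693 CPM in enzalutamide and 6.18 ± 0.581 CPM in DMSO and did not pass (adjusted p = 0.578).

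Of 9 other orphan receptors tested that bind extended half-sites as monomers, 2 were higher (22.2%) and 2 lower (22.2%). These shares were close to those over all genes, 19% higher and 18.8% lower. Rorb (log2 fold change -0.31) and the estrogen-related receptor gene Esrrg (-0.42) fell. Rora rose by 0.20 on the log2 scale (adjusted p = 0.029), a change which was 0.13 (adjusted p = 0.0817) without enzalutamide library 5, and it also did not pass without DMSO library 1 (adjusted p = 0.0703) or DMSO library 4 (0.0703), or with no filter on low counts (0.0558). The adjusted p over all alternatives ran from 0.0126 to 0.0817.

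Genes with a CRE-rich promoter were then compared across the table, a grouping made by sequence alone and added after the values were known. Among tested genes matched to a promoter window by an identical symbol, NR4A left out, 31.1% of 9909 held at least 1 half-site. Genes listed under an older and a newer symbol, such as Fam46a, were left out of the list shares. These shares therefore do not cover every tested gene with a window. The share was 8 of 11 for CREB target genes (72.7%), 12 of 23 for other immediate early genes (52.2%) and 8 of 17 for cAMP and CREB inputs (47.1%). It was 7 of 22 for calcium, MEF2 and SRF inputs (31.8%), 5 of 16 for reported NR4A targets (31.2%), 3 of 10 for partners (30%), 2 of 8 for the other orphan receptors (25%) and 2 of 9 for ERK feedback genes (22.2%). Outside the NR4A family, 33 tested genes had 4 or more half-sites, and of these 12 were lower (36.4%) and 10 higher (30.3%). Their log2 fold changes ran from -0.48 (1110020A21Rik) to 0.80 (Dusp8, a phosphatase of stress kinases), with a median of -0.02. Of the 6830 tested genes with no half-site, 19% were lower and 20.1% higher, and of the 2251 with 1, 21.8% were lower and 21.1% higher. Of the 668 with 2 half-sites, 28.6% were lower and 17.7% higher, and of the 127 with 3, 26% were lower and 17.3% higher. The share more than 2-fold lower was 1.05% with 0 half-sites, 0.666% with 1, 1.05% with 2, 0% with 3 and 0% with 4 or more.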

How the data were processed

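The authors deposited raw counts for each Ensembl gene in 1 column per library. Their second deposited table holds signal, the counts divided by 1 factor per library: with that factor taken from the values, 20129 of its 20240 genes were matched by symbol and value, with products within 0.000436 of the count. HISAT2, StringTie, DESeq2 and mm10 are named in the submitters' processing notes without versions or roles, and the strand setting is not given in the sources used here. Reads of overlapping and antisense genes therefore cannot be told apart, although no annotated gene overlaps an NR4A gene. Columns were matched to samples by library name, and 0 columns were left unused.

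The counts went into edgeR 4.0.16 (R 4.3.3), where filterByExpr kept 14156 genes, libraries were scaled by trimmed mean of M values, and enzalutamide was compared with DMSO by the quasi-likelihood test without covariates, adjusted over all genes by Benjamini-Hochberg with a threshold of 0.05. Standard errors were derived from the F statistic, as the size of the log2 fold change over the root of F. A count of 0 allows up to 3 counts, or 0.0439 to 0.0497 CPM, for counting error only. The test was tried on simulated data first. Chi-square over degrees of freedom was 9.2 to 37.6 for the 20 pairs of libraries within a group, so no library was counted as a duplicate.

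Members and lists were chosen with earlier results of these data known. Named genes were the members, Gcg, up to 4 passing genes per list by adjusted p (6 for immediate early, ERK and partner lists), up to 2 that went against a uniform list, and the 5 nearest patterns per member. Some genes that this rule names are not reported here. For a symbol with several entries, the one with the highest mean count was used. Gene spans and exon lengths came from GENCODE M21 (96.5% of identifiers found) and promoters from RefSeq on GRCm38.p6. Alternatives used limma 3.58.1 and DESeq2 1.42.0.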

Additional observations from a re-analysis of the deposited data

Results flagged for a closer look

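A library that stood apart from the other 4 of its group, by a gap over 0.71 of the group's range (Dixon's test), was found in 10 of 110 groups of values examined; chance flags about 1 in 20, or 5.5 here. Among the NR4A genes, Nr4a1 was highest in enzalutamide library 4, at 6.48 CPM where the others were at 5.71 to 5.88 CPM. Nr4a2 was lowest in enzalutamide library 1, at 4.27 CPM where the others were at 5.22 to 5.43 CPM. The Nr4a2 share of the NR4A sum was lowest in DMSO library 4, at 19% where the others were at 21 to 21.4%. With each of the 10 libraries left out in turn, the log2 fold change ran from -3.54 to -3.49 for Nr4a1 and from -2.09 to -2.01 for Nr4a2.

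Enzalutamide library 5 was highest for Esrrg (47.6 CPM, others 38.5 to 40.7), Mef2d (205 CPM, others 188 to 191) and Rora (24.7 CPM, others 19.4 to 20.5). Enzalutamide library 1 was highest for Myc (6.02 CPM, others 3.35 to 3.93) and enzalutamide library 2 for Rcor2 (20 CPM, others 16.7 to 17.6). DMSO library 3 was lowest for Camk4 (145 CPM, others 153 to 155), and DMSO library 5 was highest for Mef2a (82.7 CPM, others 69.3 to 72.6).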

How the results depend on the processing

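Under all alternatives run (relative log expression and total-count scaling, no filter, a minimum mean of 1 CPM, the replicate block, DESeq2, limma-voom, limma-trend on the authors' scaled values plus 1 or 8, and leaving out each library) the log2 fold change ran from -3.54 to -3.47 for Nr4a1, from -2.09 to -2.01 for Nr4a2 and from -1.58 to -1.37 for Nr4a3. Genes that passed numbered 4884 to 5620. Same-numbered libraries did not deviate together (correlations -0.01 to 0.05; 2 of 5 enzalutamide libraries correlated best with their own number). With the replicate block the log2 fold change was -3.50 for Nr4a1, -2.07 for Nr4a2 and -1.47 for Nr4a3, and 5296 genes passed. Shares of the NR4A sum depend on division by length: from counts alone Nr4a1 held 44.8% in enzalutamide and 70.9% in DMSO, Nr4a2 22.6% in DMSO, and Nr4a3 16.6% in enzalutamide and 6.47% in DMSO. Of the 8 list counts, only that of NR4A partners moved by over 1.5 times from the count given above. It lay between 5 and 9 without 1 library. Over all alternatives, the count of the other orphan receptors ran from 3 to 5. Named genes outside the family kept their direction in these alternatives, and Trim28 and Rora lost their call in some of them. Nr4a3, at 103 to 189 counts in enzalutamide, has the least depth of the 3 genes.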
